A study of Drosophila melanogaster with 36 samples.

Results

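Arsenite stress was compared with unstressed control in Mock RNAi cells, the cells that went through the RNAi procedure as the reference for a knockdown of rasputin (rin). The libraries were chosen by their titles: Mock RNAi stress replicates 1 to 3 and Mock RNAi control replicates 1 to 3, which are 6 of the 36 libraries of the series. All 6 come from S2R+, a semi-adherent cell line of Drosophila melanogaster that descends from embryonic cells and has haemocyte (insect blood cell) character. The stress group was kept in 0.5 mM sodium arsenite for 3 h at room temperature and its RNA was taken at the end of that time, and the control group carried the same Mock RNAi without arsenite. The labels do not say what double-stranded RNA the Mock cells received. The rest of the series holds Rin RNAi cells, unmodified (WT) cells and Click-iT captures, each as control, stress and recovery, with 3 libraries per group. The RNA was poly(A) selected, read as single-end sequences with a library kit that does not keep strand, and deposited as counts of reads per gene symbol.

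Arsenite is a trivalent metalloid that binds vicinal thiols of proteins and depletes reduced glutathione. Cells answer it along several known routes: heat-shock factor (Hsf) drives chaperone genes, the metal-responsive factor MTF-1 drives metallothioneins, the Nrf2 homologue cnc drives thiol and detoxification genes, and kinases that phosphorylate eIF2alpha shut down translation initiation so that stress granules form. In S2 cells arsenite is a standard way to make stress granules, and Rin is the fly homologue of the mammalian granule protein G3BP.

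The 3 stress libraries held 8382837 to 9110751 reads counted in genes and the 3 control libraries 6897154 to 9669428. Reads without a unique alignment were left out of the gene counts. They made up 7.51% in control replicate 3, the library with the fewest counted reads, against 3.95% and 4.45% in control replicates 1 and 2. In the stress libraries they made up 4.16% to 4.32%. Between 11156 and 11458 gene symbols had at least 1 read in a stress library, against 10779 to 10900 in a control library. Levels are given below as CPM (read counts scaled to a common library size) after adjustment by edgeR's TMM factors, as mean ± SD with n = 3 in each group, and differences as log2 fold changes of stress over control with their standard error (SE). CPM is not divided by gene length, so that levels are compared between groups and not between genes. A gene is called changed at a Benjamini-Hochberg adjusted p below 0.05 in edgeR's quasi-likelihood test over 8707 genes. The p-values of this test measure the spread between replicates within the groups of the 18 Mock and Rin libraries, which were fitted together. Nothing in the labels says that the replicates were separate cultures, so that spread may be technical. These are bulk libraries, in which fewer cells of a type and less RNA per cell cannot be told apart.

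Stress replicate 2 and control replicate 1 stood apart from the other libraries of their groups, in step with gene length. The 8681 tested genes with an annotated exon length were put into 5 groups of about equal size by that length, and the group of the shortest genes (72 to 1129 bases) had a median deviation from their group's mean of 0.15 log2 units in stress replicate 2, against -0.09 and -0.06 in stress replicates 1 and 3. The control group showed the same tilt in replicate 1, at 0.09, against -0.04 in each of control replicates 2 and 3. In the group of the longest genes, from 4079 bases, the signs were turned round, at -0.18 in stress replicate 2 and -0.14 in control replicate 1. The group contrast also differed with length: the median log2 fold change was 0.14 for the shortest genes and -0.05 for the longest. In the unmodified WT cells the medians of the same genes were 0.09 and -0.04. Genes called lower had a median exon length of 2504 bases, against 1989 bases for genes called higher and 1796 bases for genes not called. The part that this length tilt has in the results on short and long genes was not tested. Values that move without these libraries are given beside the results.

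**Figure D1:**
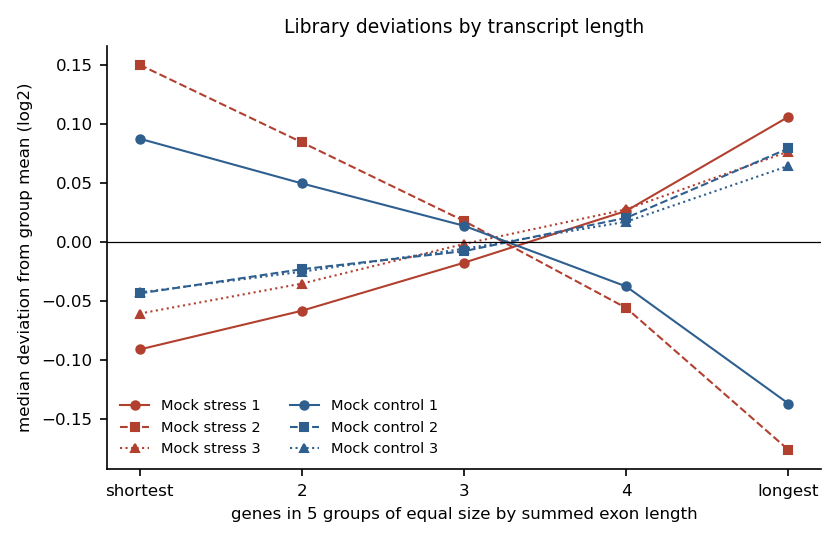
Median deviation of each library from the mean of its own group (log2 units, vertical axis) in 5 groups of genes by annotated exon length (horizontal axis, shortest to longest), with a red line for each stress library and a blue line for each control library. Stress replicate 2 and control replicate 1 slope downwards, from 0.15 and 0.09 for the shortest genes to -0.18 and -0.14 for the longest, and the other 4 libraries slope the other way.

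Most tested genes differed between arsenite-stressed and control Mock cells, with about as many higher as lower, and the large changes were mostly increases. Of 8707 genes, 58.8% were called, 29.0% higher and 29.8% lower, and 59.4% had no overlap between the 3 stress and the 3 control libraries. Changes of at least 2-fold were called higher in 8.04% of the genes and lower in 3.51%. Among the genes called higher, 130 had a log2 fold change of 3 or more, while 9 of the genes called lower had fallen that far. Most calls were small: 1137 of the higher genes and 1393 of the lower genes changed by less than 0.5 log2 units. Genes called higher took up 57.7% of the stress counts and 45.5% of the control counts, and genes called lower took up 17.4% of the stress counts and 26.7% of the control counts. The median log2 fold change over all genes tested was 0.00, which is the value each list of genes below is set against. The counts called in each list are to be read beside the 29.0% higher and 29.8% lower of all genes tested. Of the calls, 49.3% were higher and 50.7% lower, and with total library size in place of TMM factors the split was 30.9% higher and 69.1% lower, with the median of all genes moved by -0.166. Lists whose median lay near 0 (the CCT chaperonin, JNK and p38, TOR and insulin, translation factors, autophagy, histones and mitochondrial ribosomal proteins) changed the sign of their median under that scaling.

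The authors' deposited table of this comparison lists 2541 genes as higher and 2405 as lower. In all, 4734 calls are shared with the authors' deposited table, none of them in the opposite direction, and 383 genes were called here alone.

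**Figure D2:**
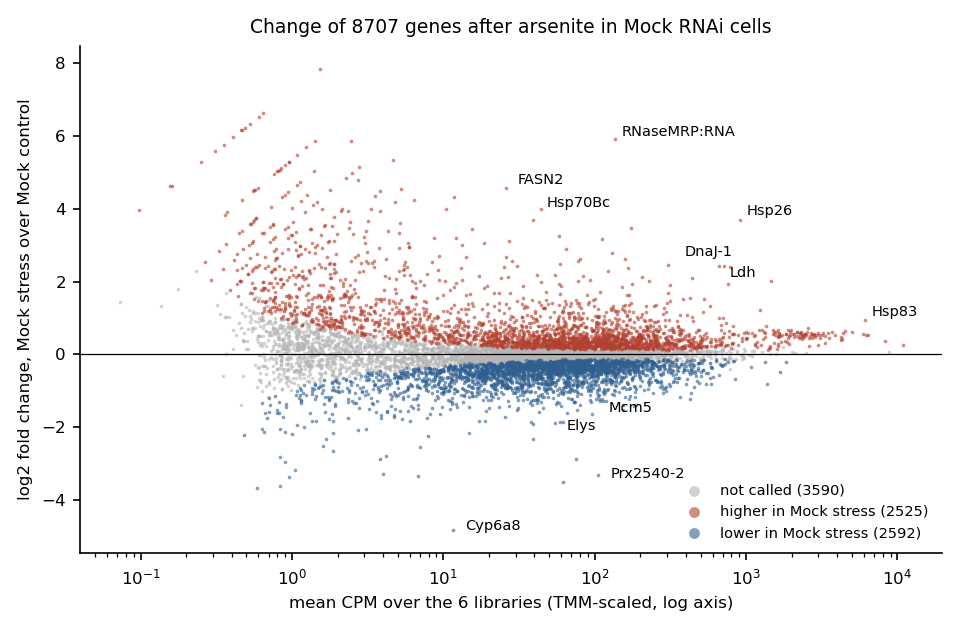
Each point is a tested gene, with its mean level over the 6 libraries (CPM, log axis) on the horizontal axis and its log2 fold change of stress over control on the vertical axis. Genes called higher lie above 0 and genes called lower below it, and the named genes at the extremes are RNaseMRP:RNA at 5.90 and Cyp6a8 at -4.83.

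Inducible chaperones rose in every member that could be tested. All 5 tested Hsp70-family genes rose, with a median log2 fold change of 2.35, and so did all 7 small heat-shock protein genes, with a median of 1.58. Hsp26, which encodes a small heat-shock protein that holds unfolding proteins in solution (3L:9376418-9377427), had 1561, 1911 and 1609 CPM in the stress libraries, against 138, 129 and 125 CPM in the control libraries. The groups were far apart, with stress replicate 2 the highest. Its log2 fold change was 3.69 (SE 0.08, edgeR adjusted p = 1.58e-17). Hsp27 averaged 709 ± 43.9 CPM in stress and 166 ± 10.7 CPM in control, and Hsp23 averaged 1206 ± 77.0 CPM in stress and 317 ± 32.0 CPM in control. The small heat-shock gene with the least change was CG14207, at 0.33 (SE 0.12, edgeR adjusted p = 0.019), whose call was lost without stress replicate 3 or control replicate 3.

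Members of the Hsp70 family, ATP-driven chaperones that are the classic heat-inducible genes of the fly, differed widely in the size of the change. Hsp70Bc (3R:12509076-12511461) had 75.0, 99.3 and 74.0 CPM in the stress libraries, against 6.42, 4.38 and 4.50 CPM in the control libraries. The groups were far apart, and the log2 fold change was 4.0 (SE 0.19, edgeR adjusted p = 3.52e-14). Hsp68 had 500, 437 and 466 CPM in the stress libraries, against 160, 145 and 134 CPM in the control libraries, a log2 fold change of 1.67 (SE 0.12, edgeR adjusted p = 3.58e-10). Hsp70Bb averaged 293 ± 37.3 CPM in stress and 168 ± 17.8 CPM in control, a log2 fold change of 0.81. The Hsp70B genes are near-identical copies. Reads shared by copies, which have no unique alignment, would be missing from the counts, so the values of the separate copies are uncertain. Hsp70Aa had no counted reads in any of the 6 libraries and Hsp70Ab had 3 in stress and 0 in control, which is too few to test. As shared reads would be missing, these counts do not show that either gene was silent.

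The list of other cytosolic chaperones, which also holds Hsf and lncRNA:Hsromega, had 11 of 15 tested members higher and 3 lower, with a median log2 fold change of 0.29. With total library size in place of TMM factors, 7 were higher and 4 lower. Starvin (stv), a BAG-domain partner of Hsp70, had 218, 174 and 214 CPM in the stress libraries, against 21.2, 24.8 and 21.4 CPM in the control libraries, with a log2 fold change of 3.17. DnaJ-1, a J-domain protein that feeds substrates to Hsp70, had 1343, 1284 and 1349 CPM in the stress libraries, against 255, 256 and 243 CPM in the control libraries, with a log2 fold change of 2.40. In both genes the groups lay well apart. The noncoding RNA lncRNA:Hsromega, the core of the fly's omega speckles, averaged 1112 ± 25.4 CPM in stress and 208 ± 6.07 CPM in control. Hsf itself averaged 246 ± 2.56 CPM in stress and 110 ± 2.61 CPM in control, a log2 fold change of 1.16. Hsp83, the fly Hsp90, averaged 8015 ± 247 CPM in stress and 4172 ± 197 CPM in control, a log2 fold change of 0.94. The constitutive Hsc70-4 rose by 0.41, and the Hsp70-interacting genes HIP, HIP-R and STUB1 fell by 0.29, 0.26 and 0.24 on the log2 scale. The CCT chaperonin, which folds actin and tubulin, had 1 of 8 members higher and 1 lower, with a median log2 fold change of 0.06.

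**Figure D3:**
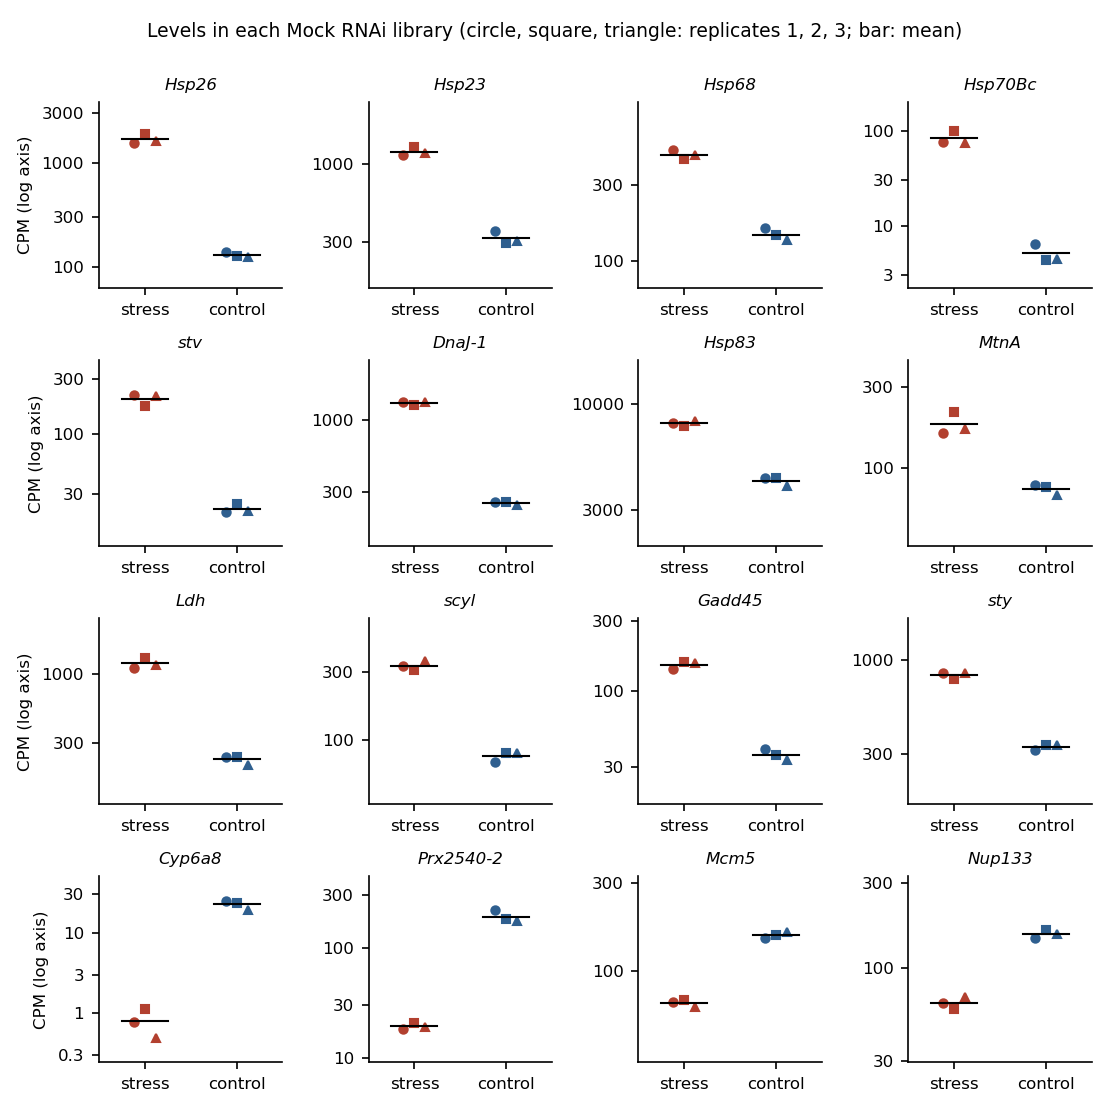
Level of selected genes in each library (CPM, log axis), with the 3 stress libraries left of the 3 control libraries for each gene and a bar at each group mean. Circles, squares and triangles are replicates 1, 2 and 3. In the 16 genes shown the groups do not overlap, as for Hsp26 at 1561 to 1911 CPM in stress and 125 to 138 CPM in control. No overlap was part of the rule that named the largest changes, and 59.4% of all genes tested had none.

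Both tested members of the metallothionein and MTF-1 list rose, while zinc and copper transporters were mixed. MtnA, a metallothionein that binds metal ions through cysteines, had 161, 215 and 170 CPM in the stress libraries, against 80.0, 77.8 and 69.7 CPM in the control libraries. The groups did not overlap, stress replicate 2 was the highest, and the log2 fold change was 1.26 (SE 0.10, edgeR adjusted p = 7.24e-10). Its activator MTF-1 rose by 0.56. MtnB and MtnD had no reads in the 6 libraries, and MtnC and MtnE too few to test. Of the 5 tested thioredoxin and glutathione genes 3 were higher and none lower: Trx-2 rose by 0.78, the reductase Trxr-1 by 0.66 and the glutamate-cysteine ligase Gclc by 0.36. The transcription factor cnc averaged 404 ± 41.0 CPM in stress and 252 ± 13.4 CPM in control, its adaptor Keap1 fell by 0.38 on the log2 scale, and ref(2)P, the fly p62, rose by 0.50. Of 6 tested enzymes that remove superoxide and peroxide 4 were higher, 1 of them by at least 2-fold, and 1 was lower. PHGPx rose by 0.51, catalase (Cat) fell by 0.39 on the log2 scale, and Sod2 was not called. The heavy chain of ferritin, Fer1HCH, rose by 0.55. Of 16 zinc and copper transporters 2 were higher, 1 of them by at least 2-fold, and 6 were lower. With total library size 2 were higher and 12 lower.

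All 9 tested Delta-class glutathione transferases, which conjugate glutathione to electrophiles and lie in a cluster, rose, with a median log2 fold change of 0.77. GstD6, GstD7 and GstD10 changed by 2.61, 2.27 and 2.02, at levels below 11 CPM in every library. GstD1 averaged 276 ± 53 CPM in stress and 209 ± 18.6 CPM in control, a log2 fold change of 0.40, and GstD3 changed by 0.64. All 9 stayed higher without stress replicate 2 and control replicate 1 together. When any 1 of the 6 libraries was left out, 10 members passed the count filter and 9 were called higher, and the median was then 1.15 to 1.29. Without a filter 11 members were tested, 9 of them called higher, at a median of 1.66. Other glutathione transferases were mixed, with 13 of 24 higher and 5 lower. GstE8 averaged 277 ± 44.0 CPM in stress and 73.0 ± 6.81 CPM in control, whereas GstE3 averaged 197 ± 23.3 CPM in stress and 396 ± 19.5 CPM in control.

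Cytochrome P450 genes, whose haem enzymes oxidise steroids and foreign compounds, gave some of the largest changes in both directions. Of 44 tested, 19 were higher and 8 lower, and 11 and 6 of these changed by at least 2-fold. Cyp6a8 had 0.768, 1.12 and 0.485 CPM in the stress libraries, against 25.1, 23.2 and 19.2 CPM in the control libraries. Cyp310a1 averaged 13 ± 1.15 CPM in stress and 65.3 ± 2.41 CPM in control, and Cyp6a2 averaged 1.22 ± 0.518 CPM in stress and 12.4 ± 1.55 CPM in control. The groups of these 3 genes were far apart, with log2 fold changes of -4.83, -2.33 and -3.34. In the other direction, Cyp4e1 changed by 3.6, Cyp6a19 by 2.94, Cyp4aa1 by 1.87 and Cyp6a23 by 1.12.

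The peroxiredoxin list, whose products reduce peroxides, had 4 of 7 tested members lower, and 3 of these lie next to each other on chromosome arm 2R. Prx2540-2 had 18.3, 20.9 and 19.3 CPM in the stress libraries, against 220, 180 and 173 CPM in the control libraries. Prx2540-1 had 8.23, 12.4 and 9.46 CPM in the stress libraries, against 136, 97.2 and 104 CPM in the control libraries. The stress libraries lay far below the control libraries in both genes, and the log2 fold changes were -3.30 (SE 0.09, edgeR adjusted p = 1.24e-16) and -3.50 (SE 0.15, edgeR adjusted p = 1.43e-14). The third copy, CG12896, fell by 3.27 on the log2 scale. The copies are close in sequence, and reads without a unique alignment would be missing from their counts, so the level of each copy is uncertain. CG11825, which lies between Prx2540-2 and Prx2540-1, averaged 18.2 ± 1.51 CPM in stress and 133 ± 15.7 CPM in control, a log2 fold change of -2.87. The next gene outside this block, RanBPM, was not called, at -0.13 (SE 0.07). Away from the block, the peroxiredoxin Jafrac1 rose by 0.38 and Jafrac2 was not called.

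Few proteasome genes were called, while both polyubiquitin genes rose. Of 31 proteasome subunits 1 was higher and 7 were lower, with a median log2 fold change of -0.02, and the largest changes were those of the regulatory-particle subunits Rpn2 at -0.53 and Rpn5 at -0.51. With total library size in place of TMM factors, 19 subunits were lower and none higher. The polyubiquitin gene Ubi-p63E averaged 782 ± 83.9 CPM in stress and 272 ± 20.8 CPM in control, and Ubi-p5E rose by 1.19. The repeats of these genes are near-identical, and reads without a unique alignment would be missing from their counts, so their levels are uncertain.

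The integrated stress response, the pathway downstream of eIF2alpha phosphorylation, had 8 of 10 tested members higher and 2 lower, with a median log2 fold change of 0.36, or 5 higher and 2 lower with total library size. Thor, the fly 4E-BP that holds back cap-dependent translation, had 33.6, 35.1 and 31.2 CPM in the stress libraries, against 10.2, 11.7 and 8.73 CPM in the control libraries. Asparagine synthetase, AsnS, had 246, 258 and 261 CPM in the stress libraries, against 83.5, 82.1 and 80.1 CPM in the control libraries. The groups of both genes lay far apart, with log2 fold changes of 1.69 and 1.64. The ATF4 homologue crc, of whose exons 73.5% overlap another gene on the same strand, rose by 0.40, the phosphatase regulator PPP1R15 by 0.27 and the transcription factor Xrp1 by 0.29. The pseudokinase tribbles (trbl) fell by 0.93 and the kinase Gcn2 by 0.32 on the log2 scale. Of 20 aminoacyl-tRNA synthetases, which charge tRNAs for translation, 12 were higher and 6 lower, or 8 higher and 6 lower with total library size. TrpRS changed by 0.72, AsnRS by 0.66, AspRS by 0.61 and GluProRS by -0.58. Exons of AspRS overlap several other genes, and the largest overlap with a single gene is 63.9% of their length, so its value is uncertain. The unfolded protein response of the endoplasmic reticulum had 5 of 19 higher and 6 lower, or 3 higher and 12 lower with total library size. The oxidase Ero1L rose by 0.65 and the chaperone Hsc70-3 by 0.35, while the sensor Atf6 fell by 0.42 on the log2 scale.

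In the JNK and p38 pathways members changed in both directions. The list had 7 of 18 members higher and 4 lower, with a median log2 fold change of 0.01. In all 61.1% of its members were called, close to the 58.8% of all genes tested. Gadd45, a stress-inducible activator of the JNK cascade, had 141, 156 and 154 CPM in the stress libraries, against 40.2, 36.1 and 33.4 CPM in the control libraries, with a log2 fold change of 2.04 (SE 0.08, edgeR adjusted p = 3.52e-14). The groups did not overlap. The JNK phosphatase puckered (puc) averaged 351 ± 26.4 CPM in stress and 140 ± 7.25 CPM in control, and the Fos homologue kayak (kay) averaged 1735 ± 114 CPM in stress and 743 ± 67.4 CPM in control. The TNF ligand eiger (egr) fell by 0.44 on the log2 scale and its receptor wgn rose by 0.95.

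Inducible transcription factors had 14 of 20 tested members higher and 1 lower, with a median log2 fold change of 0.43. The Snail-family repressor escargot (esg) had 9.11, 8.92 and 8.97 CPM in the stress libraries, against 0.192, 0.0953 and 0.397 CPM in the control libraries. The control libraries were close to 0, and the log2 fold change was 5.33 (SE 0.70, edgeR adjusted p = 2.47e-10). Ets21C, an ETS factor downstream of JNK, rose by 1.33, Atf3 by 0.42 and the Jun homologue Jra by 0.42. The zinc-finger factor cabut (cbt) fell by 1.03 on the log2 scale.

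Genes of the TOR and insulin pathway changed in both directions, while Ldh of the hypoxia list rose. Scylla (scyl) and charybde (chrb), the fly REDD1 homologues that restrain TOR, rose by 2.12 and 1.5. Scyl had 333, 309 and 360 CPM in the stress libraries, against 69.7, 80.8 and 80.1 CPM in the control libraries, with no overlap. Over the whole TOR and insulin list 7 of 17 members were higher and 6 lower, with a median of 0.06. The share called was 76.5%, against 58.8% of all genes tested. The growth regulator Myc averaged 722 ± 61.2 CPM in stress and 324 ± 32.5 CPM in control. The largest overlap of its exons with a single other gene is 40.9% of their length. The insulin receptor InR rose by 0.95 and the kinase Akt1 fell by 0.45 on the log2 scale. The hypoxia list had 3 of 4 members higher and 1 lower. Lactate dehydrogenase (Ldh), a target of the hypoxia factor, had 1112, 1318 and 1166 CPM in the stress libraries, against 235, 234 and 205 CPM in the control libraries. The groups were far apart, at a log2 fold change of 2.41 (SE 0.07, edgeR adjusted p = 5.99e-16). The prolyl hydroxylase Hph averaged 219 ± 9.86 CPM in stress and 94.5 ± 1.58 CPM in control, the hypoxia factor sima rose by 0.63 and its partner tgo fell by 0.41 on the log2 scale.

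Most tested genes of the EGFR and PVR pathway rose. Of 12 members 8 were higher and 1 lower, with a median log2 fold change of 0.61. The inhibitor sprouty (sty) had 847, 781 and 839 CPM in the stress libraries, against 314, 336 and 334 CPM in the control libraries. The groups were far apart, with a log2 fold change of 1.33 (SE 0.07, edgeR adjusted p = 4.98e-12). The phosphatase Mkp3, which acts on ERK, rose by 1.43, and the receptor Pvr fell by 0.56 on the log2 scale. In the immune list, 5 of 9 were higher and 2 lower: pirk, an inhibitor of the Imd pathway, averaged 166 ± 9.21 CPM in stress and 50.2 ± 2.48 CPM in control, while Relish (Rel) and cactus (cact) rose by 0.49 and 0.51 and Toll (Tl) fell by 0.47 on the log2 scale. Of 12 apoptosis genes 7 were higher and 2 lower (5 and 5 with total library size), with the killer gene rpr at 0.49, its target Diap1 at 0.47, p53 at 0.52 and the apoptosome scaffold Dark at -0.38. Antisense RNAs overlap 56.9% of the exons of Dark and 38% of those of p53, so both values are uncertain.

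Ribosomal protein genes and genes that build ribosomes moved in opposite directions. Of 83 tested cytosolic ribosomal protein genes 80 were higher and none lower, with a median log2 fold change of 0.54, and RpL37b, RpS10a and RpS5b were not called. RpLP2, a stalk protein of the large subunit, had 2560, 4256 and 2709 CPM in the stress libraries, against 2115, 1840 and 1842 CPM in the control libraries. Stress replicate 2 was far above the other stress libraries, and the groups still did not overlap. RpL5 had 8471, 10350 and 8978 CPM in the stress libraries, against 7423, 6886 and 7212 CPM in the control libraries. Without stress replicate 2 and control replicate 1, 80 ribosomal protein genes were higher and 1 lower, at a median of 0.44. With 1 library left out the median ran from 0.38 (without stress replicate 2) to 0.635 (without stress replicate 1). It was 0.37 with total library size in place of TMM factors. By contrast, 18 of 24 ribosome biogenesis genes were lower and 3 higher, with a median of -0.32. RpI135 and RpI1, the large subunits of RNA polymerase I, fell by 1.00 and 0.85 on the log2 scale, and the polymerase I factor Tif-IA fell by 0.73. RpI135 averaged 44.8 ± 4.14 CPM in stress and 89.7 ± 3.33 CPM in control. Those that rose were Myc, at 1.16, Non1, a nucleolar GTPase, at 0.58, and the rRNA methyltransferase fibrillarin (Fib), at 0.25.

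Translation factors rose in 23 of 46 cases and fell in 5, with a median log2 fold change of 0.15. The elongation factor eEF1alpha1 averaged 11842 ± 268 CPM in stress and 9859 ± 150 CPM in control, a log2 fold change of 0.26, and the helicase eIF4A changed by 0.34. With total library size in place of TMM factors 11 were higher and 8 lower, at a median of -0.02. Nuclear genes of oxidative phosphorylation had 30 of 69 members higher and none lower at a median of 0.21. Without stress replicate 2 this became 14 higher and 5 lower at a median of 0.07, and with total library size 5 higher and 9 lower. Mitochondrial ribosomal proteins had 11 of 72 higher and 5 lower, with a median of 0.00.

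Lists of RNA decay, small RNA, Integrator and 3' end processing genes had more members lower than higher, against a background of 29.8% of all tested genes called lower, whereas SR splicing factors did not. Of 11 SR splicing factors, which select splice sites, 2 were higher and 2 lower, with a median log2 fold change of -0.02 (1 higher and 6 lower with total library size). Of 20 P-body and decay genes 13 were lower and none higher, with a median log2 fold change of -0.35. The nonsense-mediated decay factors Upf2 and Upf1 fell by 0.81 and 0.63, and the decapping enhancer Edc3 by 0.56 on the log2 scale. Of 11 exosome genes, which degrade RNA from its 3' end, 8 were lower, led by Rrp6 at -1.10. Of 9 genes of the small RNA machinery 6 were lower. Drosha, which cuts primary microRNAs, averaged 24.1 ± 1.47 CPM in stress and 48.5 ± 5.59 CPM in control, Dcr-1, which cuts their hairpins, averaged 48.0 ± 9.17 CPM in stress and 93.0 ± 9.01 CPM in control, and pasha, the partner of Drosha, fell by 0.88 on the log2 scale. Of 11 Integrator subunits, which cleave small nuclear RNAs, 9 were lower and 1 (IntS12) higher, and of 12 genes of 3' end processing 9 were lower, with Cpsf160 at -0.89 and Cpsf100 at -0.79.

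Nucleoporins gave 18 of 21 tested members lower and none higher, with a median of -0.50. Nup133, of the outer ring of the pore, had 63.2, 58.6 and 68.4 CPM in the stress libraries, against 146, 162 and 154 CPM in the control libraries. The stress libraries all lay far below the control libraries, and the log2 fold change was -1.28 (SE 0.06, edgeR adjusted p = 1.06e-12). Nup358 and Nup160 fell by 1.05 and 0.93 on the log2 scale, Elys, which seeds pores on chromatin, fell by 1.88, and Nup37, Nup75 and Nup62 were not called. Without stress replicate 2 and control replicate 1 the count was again 18, at a median of -0.45.

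Stress-granule protein genes changed little. Of 10 tested, 1 was higher, the poly(A)-binding protein pAbp at 0.26, and 4 were lower, among them the helicase bel at -0.51, the FMRP homologue Fmr1 at -0.35 and Atx2 at -0.37. Atx2 lost its call in some fits that left out 1 library. The gene rin, the knockdown target in the Rin RNAi cells, had 860, 751 and 851 CPM in the Mock stress libraries, against 895, 912 and 896 CPM in the Mock control libraries. It was present in all 6 libraries, and the groups did not overlap, as in 59.4% of all genes tested. The gene was not called, at -0.13 (SE 0.20, edgeR adjusted p = 0.583). That SE also draws on the spread among the Rin RNAi libraries of the fit, so it is not the spread of these 6 libraries alone.

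**Figure D4:**
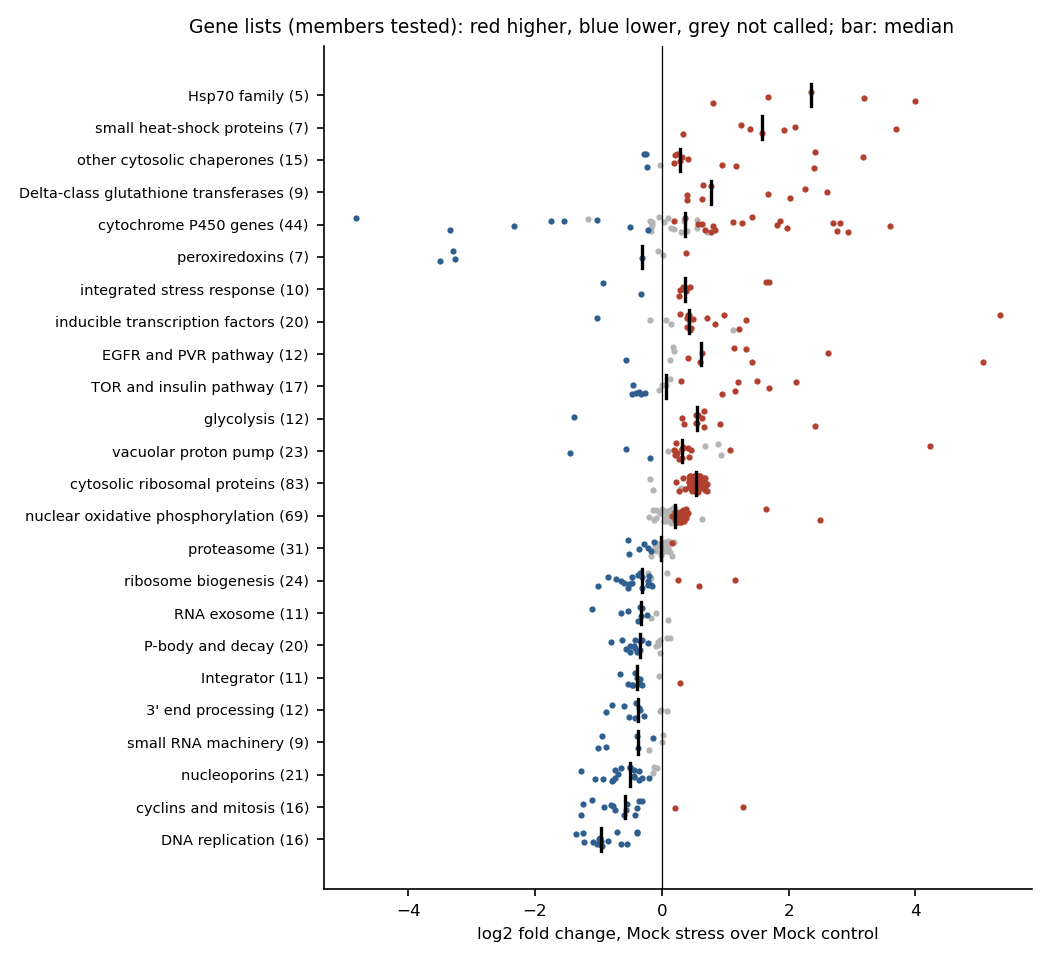
Distribution of log2 fold changes (stress over control, horizontal axis) within gene lists, each point a tested gene and the bar the median of the list, with the median over all genes as a line at 0. Chaperones and ribosomal proteins lie to the right, at medians of 2.35 (Hsp70 family) and 0.54, and nucleoporins and DNA replication genes to the left, at -0.50 and -0.95.

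All 16 tested DNA replication genes fell, with a median log2 fold change of -0.95. Mcm5, a subunit of the replicative helicase, had 67.6, 69.2 and 63.7 CPM in the stress libraries, against 151, 158 and 163 CPM in the control libraries. The stress libraries all lay far below the control libraries, and the log2 fold change was -1.24 (SE 0.07, edgeR adjusted p = 2.96e-12). The origin subunit Orc5 had 6.80, 8.18 and 5.46 CPM in the stress libraries, against 18.5, 17.0 and 16.8 CPM in the control libraries, a log2 fold change of -1.36. The helicase subunits dpa (Mcm4) and Mcm2 fell by 1.23 and 1.08 and the ribonucleotide reductase subunits RnrL and RnrS by 0.94 and 0.55 on the log2 scale. PCNA, the sliding clamp, averaged 282 ± 25.6 CPM in stress and 441 ± 11.6 CPM in control. Fancd2, of the interstrand crosslink repair pathway, fell by 1.91 on the log2 scale.

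Genes of the cyclin and mitosis list fell in 14 of 16 cases. Cdk1, the mitotic kinase, averaged 22.1 ± 1.67 CPM in stress and 53.4 ± 5.18 CPM in control, a log2 fold change of -1.27. CycB, its cyclin, averaged 317 ± 5.27 CPM in stress and 594 ± 22.8 CPM in control, a log2 fold change of -0.91, and Cdk2, BubR1, polo and CycA changed by -1.24, -1.10, -0.60 and -0.42. The spindle-pole gene asp averaged 26.4 ± 3.03 CPM in stress and 96.2 ± 10.6 CPM in control. String (stg), the Cdc25 phosphatase that activates Cdk1, went the other way, with 392, 394 and 432 CPM in the stress libraries, against 159, 182 and 161 CPM in the control libraries, a log2 fold change of 1.28 (SE 0.08, edgeR adjusted p = 7.49e-11). Its groups did not overlap.

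The unmodified WT cells of the series went through the same arsenite step with 3 libraries per group, and the difference between the responses was tested as an interaction in a fit of the 27 poly(A) libraries, in which 8902 genes were tested. The Mock and WT sets have no library in common, and the RNAi procedure and any difference in handling between the sets cannot be told apart. In WT cells 27.2% of these genes were called higher in stress and 22.8% lower. The response differed between Mock and WT in 27.2% of the genes, with the Mock response the higher in 10.9% and the lower in 16.3%. Of these calls 40.1% were the higher and 59.9% the lower in Mock, a split that became 48.6% and 51.4% under RLE scaling, 29.7% and 70.3% under total library size, and 55.4% and 44.6% when genes averaging under 10 CPM were left out.

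The replication genes were among those that differed. In WT cells 5 of the 16 were called higher and 4 lower, with a median log2 fold change of 0.02, and the Mock response was the lower for all 16, with a median difference of -0.91. Mcm5 averaged 131.7 ± 2.41 CPM in WT stress and 149.1 ± 2.61 CPM in WT control, and its Mock response was lower than its WT response by -1.05 log2 units (edgeR adjusted p = 7.4e-11). Differences for dpa, Mcm2, Orc5, RnrL and PCNA were -1.06, -1.02, -1.26, -0.90 and -0.74. In the Rin RNAi cells all 16 were also called lower in stress, where 30.8% of all tested genes were. Over the cyclin and mitosis list the Mock response was the lower for 13 of 16 genes. CycB had a log2 fold change of -0.90 in Mock and 0.08 in WT, a difference of -0.98 (edgeR adjusted p = 6.02e-11), and Cdk2 one of -1.23 in Mock and 0.02 in WT. Another gene on the opposite strand overlaps 43.9% of the exons of Cdk2, so its values are uncertain. For stg the difference of 0.17 was not called.

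**Figure D5:**
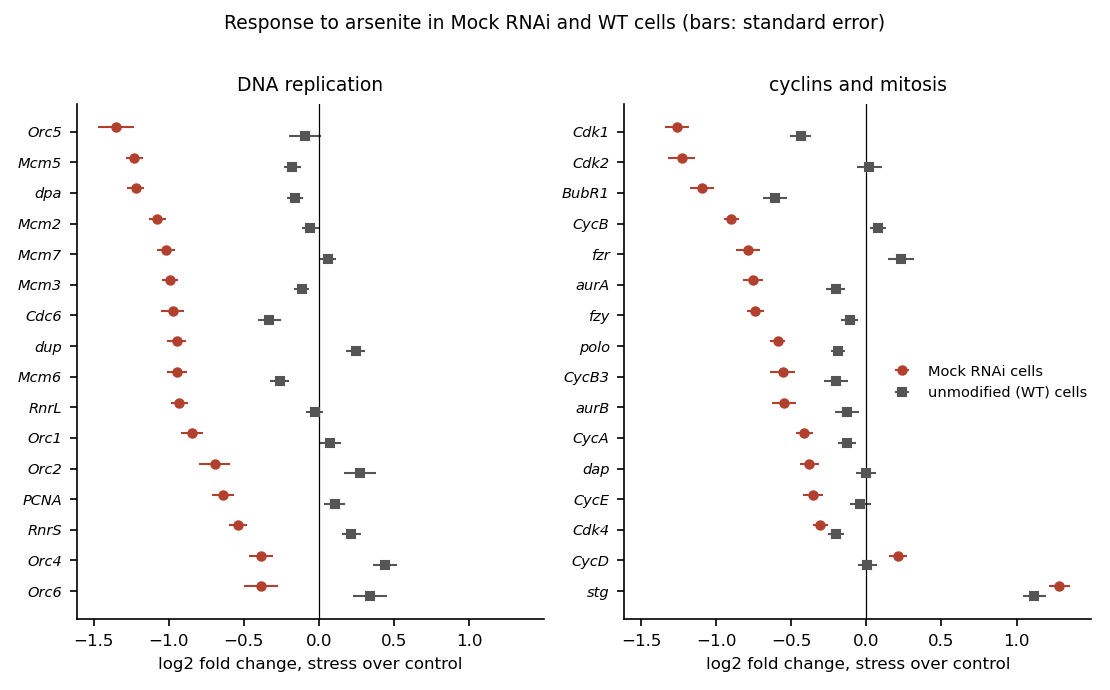
Log2 fold change of stress over control (horizontal axis) for each DNA replication gene (left) and each cyclin and mitosis gene (right), with red circles for Mock cells, grey squares for WT cells and bars for the SE. The Mock points of the 16 replication genes lie at a median of -0.95 and the WT points at a median of 0.02.

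Other lists differed between the sets in part. The cytosolic ribosomal protein genes rose in both, 80 of 83 in Mock and 79 in WT, and the response differed in 1. Of 21 nucleoporins 18 were lower in Mock and 17 in WT, and 7 had the lower response in Mock. The aminoacyl-tRNA synthetases were 12 higher and 6 lower in Mock, against 4 higher and 9 lower in WT, and 13 of the 20 had the higher response in Mock. Among the chaperones, Hsp68 had log2 fold changes of 1.68 in Mock and 2.91 in WT, a difference of -1.23 (SE 0.16, edgeR adjusted p = 6.09e-07), and Hsp26 had 3.70 in Mock and 4.41 in WT. The difference for Hsp23, 0.03, was not called. MtnA changed by 1.27 in Mock and 0.43 in WT (edgeR adjusted p = 1.84e-04 for the difference). Ldh, at 2.42 in Mock and 1.83 in WT, averaged 87.2 ± 6.35 CPM in WT stress and 24.6 ± 1.40 CPM in WT control, and pyruvate kinase (PyK) had 0.57 in Mock and -0.34 in WT.

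Some single genes had opposite or unlike responses. Hoe1, a homologue of the human OCA2 transporter, averaged 125.2 ± 8.91 CPM in Mock stress and 30.8 ± 1.6 CPM in Mock control, against 28.1 ± 1.97 CPM in WT stress and 36.3 ± 3.63 CPM in WT control. Its Mock response was higher by 2.39 log2 units (edgeR adjusted p = 2.21e-12). Curled (cu), the fly nocturnin, averaged 68.3 ± 5.26 CPM in Mock stress and 14.9 ± 2.14 CPM in Mock control, against 16.2 ± 0.33 CPM in WT stress and 13.4 ± 2.97 CPM in WT control. Cyp310a1, lower in Mock stress, averaged 111 ± 5.73 CPM in WT stress and 82.6 ± 4.25 CPM in WT control, and CG7142 changed by -1.16 in Mock and 1.41 in WT.

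Most glycolysis genes rose. Of 12 glycolysis genes 11 were higher and 1 lower, with a median log2 fold change of 0.56. Tpi rose by 0.92, the hexokinase Hex-A by 0.66, Pfk by 0.66, PyK by 0.57 and Eno by 0.54. Gapdh1 rose by 0.32, while its paralogue Gapdh2 averaged 21.5 ± 3.81 CPM in stress and 55.8 ± 2.83 CPM in control. Reads shared by the paralogues, without a unique alignment, would be missing from both. The pentose phosphate enzymes Pgd and Taldo, which serve NADPH supply, rose by 0.79 and 0.66. Of 23 subunits of the vacuolar proton pump 16 were higher and 3 lower, with a median of 0.31, or 7 higher and 3 lower at 0.14 with total library size.

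FASN2, a fatty acid synthase (2L:3043947-3056143), had 55.1, 40.3 and 52.6 CPM in the stress libraries, against 1.73, 1.91 and 2.78 CPM in the control libraries. The control libraries were close to 0, and the log2 fold change was 4.57 (SE 0.32, edgeR adjusted p = 1.06e-12). FASN1, the other fatty acid synthase, averaged 944 ± 168 CPM in stress and 602 ± 133 CPM in control, a log2 fold change of 0.65. The lipase brummer (bmm), which releases fatty acids from stored fat, averaged 89.5 ± 5.72 CPM in stress and 20.1 ± 3.11 CPM in control, the acetyl-CoA synthetase AcCoAS rose by 1.08 and SREBP by 0.42. Vha100-4, a proton-pump subunit paralogue, averaged 12.1 ± 2.15 CPM in stress and 0.647 ± 0.231 CPM in control.

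Noncoding RNAs included the gene with the largest change among those named by the rule on size and level. RNaseMRP:RNA, the RNA of the RNase that cuts ribosomal RNA precursors (3R:23730048-23730429), had 252, 310 and 242 CPM in the stress libraries, against 2.59, 1.72 and 10.6 CPM in the control libraries. Control replicate 3 was the highest control, and the log2 fold change of 5.90 (SE 0.34, edgeR adjusted p = 5.2e-13) became 6.96 without it. RNaseMRP:RNA lies within the span of CG10365, which averaged 66.5 ± 3.35 CPM in stress and 27.8 ± 1.94 CPM in control, a log2 fold change of 1.26. Of 11 small nuclear RNAs, the RNAs of the spliceosome and 7SK, 7 were higher and none lower, with a median of 1.15: snRNA:U2:34ABa averaged 43.6 ± 4.34 CPM in stress and 10.1 ± 2.20 CPM in control, and snRNA:7SK was not called. Mature forms of these RNAs carry no poly(A) tail, and what form was counted in these poly(A) libraries was not tested. Of 36 small nucleolar and Cajal body RNAs 13 were higher and 9 lower, or 61.1% called, close to the 58.8% of all genes tested.

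Hosts of microRNAs were among the long noncoding RNAs that rose. Of 220 tested, 87 were higher and 22 lower, with a median log2 fold change of 0.40. The RNA lncRNA:CR31044, the host of mir-279 and mir-996 (3R:29214562-29219667), had 334, 302 and 319 CPM in the stress libraries, against 29.6, 27.5 and 29.0 CPM in the control libraries. The host of mir-282, lncRNA:CR43626 (3L:3249340-3254504), averaged 105 ± 2.12 CPM in stress and 10.9 ± 1.90 CPM in control. The host of bantam (mir-ban), lncRNA:CR43334 (3L:628435-643900), averaged 938 ± 54.6 CPM in stress and 467 ± 25.5 CPM in control. These are levels of the host transcripts, and the mature microRNAs were not measured. The heat-inducible lncRNA:alphagamma-element:CR32865 (3R:12475336-12478267), a repeat RNA of the Hsp70 region, averaged 72.9 ± 2.48 CPM in stress and 5.69 ± 1.21 CPM in control. Of 140 antisense RNAs 57 were higher and 13 lower, but with a kit that does not keep strand their reads and those of the gene opposite cannot be told apart. The RNA asRNA:CR43465, at 10.1 ± 1.80 CPM in stress and 0.394 ± 0.328 CPM in control, lies wholly opposite Ucp4B, and its log2 fold change of 4.54 became 5.43 without control replicate 2.

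Further genes with the largest increases were CG6142, which averaged 22.5 ± 3.29 CPM in stress and 1.14 ± 0.157 CPM in control, CG7509, at a log2 fold change of 3.99, and sanpodo (spdo), a Notch pathway protein, at 3.45. Spdo lies within PH4alphaEFB, which averaged 234 ± 16.1 CPM in stress and 103 ± 1.65 CPM in control. At the other end, the chemoreceptor-family gene Ir62a fell by 2.54, CG31125 by 2.23 and CG4238 by 2.16 on the log2 scale. Among 20 tested chemoreceptor genes 9 were higher and 1 was lower.

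Haemocyte markers had reads in both groups, and most of the tested ones were lower in stress. Of 11 tested haemocyte markers 7 were lower and none higher, with a median log2 fold change of -0.44, and their summed level was 1188 to 1484 CPM in the stress libraries, against 1838 to 2000 CPM in the control libraries. The GATA factor serpent (srp) averaged 224 ± 30.0 CPM in stress and 406 ± 39.6 CPM in control, the matrix enzyme Pxn fell by 0.60 and the phagocytic receptor eater by 1.75 on the log2 scale, and ush was not called. NimC1 and He were too low to test. Markers of other cell types also had reads, and sums of different lists are not compared, as CPM is not divided by gene length. Neuron markers summed to 51.3 to 65.6 CPM in stress and 40.9 to 50.2 CPM in control. Muscle markers summed to 21.8 to 29.9 CPM in stress and 21.0 to 24.5 CPM in control. Fat body markers summed to 0.73 to 1.12 CPM in stress and 1.24 to 1.73 CPM in control. The glia marker repo had 0.87 to 1.21 CPM in stress and 0.00 to 0.19 CPM in control. Germline markers summed to 226 to 228 CPM in stress and 191 to 216 CPM in control.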

How the data were processed

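Poly(A) RNA of Mock RNAi S2R+ cells was sequenced under arsenite stress and under control conditions. The deposited per-sample files hold raw counts of reads for 17137 gene symbols and 5 summary lines, which were left out of library sizes. STAR 2.5.3, HTSeq, DESeq2 and the build dm6 are named in the submitters' processing notes, and strand settings are not given in the sources used here. The authors' deposited comparison table gives log2 fold changes and p-values, used only for the count of shared calls. Genes were tested in edgeR 4.0.16 (R 4.3.3, limma 3.58.1) with filterByExpr, TMM scaling and quasi-likelihood tests on the 18 Mock and Rin libraries in 6 groups, with Benjamini-Hochberg adjustment over the genes tested. The common biological coefficient of variation was 6.49%. The difference between Mock and WT responses was an interaction contrast on the 27 poly(A) libraries. Both fits were run on simulated counts with few changed genes, as many higher as lower, and the same spread for every gene. The simulation held neither the length tilt nor the large share of changed genes seen here, so it does not test how the fits deal with these. Positions and exon lengths come from the Ensembl release 115 annotation matched by symbol, which found 99.7% of the tested genes.

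Replicates of a group differed by more than counting noise (chi-square per degree of freedom 1.54 to 25.7), so all 6 libraries were kept. Same-numbered stress and control libraries had correlations of deviations of -0.305, -0.216 and 0.06. Stress replicate 2 and control replicate 1, which share the length tilt, had 0.354. As these tilted libraries carry different numbers, the correlations cannot show whether the numbers pair the samples. The main fit did not take them as pairs. The members and gene lists were chosen with earlier results of these data known. Genes named by rule are the 12 highest and 12 lowest changes among genes called, not overlapping between groups and averaging at least 10 CPM. In each list the rule also names the 4 largest changes called and the 4 highest levels. Not all of these list members are given in the text, so those shown need not have the largest changes of their list. Further list members, hosts and neighbours were picked with their values already in view. Alternatives were RLE scaling, total library size, no filter on low counts, a mean of 10 CPM, DESeq2 1.42.0, limma voom with quality weights, the 6 libraries alone, a replicate block and leaving out each library. A result on 1 gene is not reported here.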

Additional observations from a re-analysis of the deposited data

Results flagged for a closer look

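The response to arsenite differed between Mock and WT cells, by the test of the difference itself, for 2419 of the 8902 genes. The sets hold different libraries, so that the RNAi procedure and the handling of the sets cannot be told apart. Values here are log2 differences of the Mock response minus the WT response, from edgeR's quasi-likelihood test. A positive value means that stress over control was higher in Mock.

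Among the genes of known routes of the arsenite response, the differences were -1.23 for Hsp68, -0.71 for Hsp26, 0.83 for MtnA and 0.31 for MTF-1. The named cell-cycle genes other than stg had the lower response in Mock, at -0.82 for Cdk1, -1.25 for Cdk2, -0.48 for BubR1, -0.98 for CycB, -0.40 for polo and -0.28 for CycA. So did the named replication genes, at -1.26 for Orc5, -1.05 for Mcm5, -1.06 for dpa, -1.02 for Mcm2, -0.76 for RnrS, -0.74 for PCNA and -0.90 for RnrL. In glycolysis the differences were 0.59 for Ldh, 0.28 for Tpi, -0.38 for Hex-A, 0.62 for Ald1 and 0.91 for PyK. The differences for CycA and Tpi lost their call in several fits that left out 1 library.

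Among genes past the level set for naming, the largest positive differences were 3.25 for asRNA:CR45798, 2.60 for asRNA:CR31144, 2.39 for hoe1 and 1.91 for cu. The RNA asRNA:CR45798 averaged 0.79 CPM in Mock stress and 0.0637 CPM in Mock control, against 13.6 CPM in both WT groups, so the Mock value rests on few reads, and it lies opposite Rab1. The RNA asRNA:CR31144 lies opposite RpL3 and lost its call under most fits that left out 1 library. The largest negative differences were -4.29 for Cyp6a8, -3.77 for Cyp6a2, -2.75 for Cyp310a1 and -2.57 for CG7142. Cyp6a8 averaged 0.79 CPM in Mock stress and 22.5 CPM in Mock control, against 2.09 CPM in WT stress and 3.05 CPM in WT control.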

How the results depend on the processing

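Of the 325 named genes called, 312 to 318 kept call and direction when 1 library was left out, 302 with total library size and 324 with the replicate block. Calls numbered 4630 to 4957 without 1 library (2327 to 2478 higher, 2303 to 2510 lower), 5454 with total library size, 4245 in the 6 libraries alone and 4898 in DESeq2. At 2-fold or more 1006 were left, 700 higher and 306 lower. Under total library size, 2 genes not called turned round: CCT1 to -0.13 and Zip102B to -0.17. The replicate block gave 5096 calls, 5046 of them shared. The 2419 differences between Mock and WT numbered 2070 to 2425 without 1 library (827 to 1171 higher in Mock, 1080 to 1453 lower) and 2202 with the block. At 2-fold or more they numbered 308 (107 higher, 201 lower in Mock). The 16 replication genes stayed the lower in Mock in every alternative run except the size threshold, which left 6. Each fit without 1 library took the call from 7 to 13 named genes. Genes that lost their call in some of these fits included AGO2, Atx2, Buffy, CCT5, CG14207, Sod1 and Vha36-2. Differences that lost it included those of CycA, CycE, Tpi and asRNA:CR31144. Depth limits genes of a few CPM or less, whose values rest on few reads.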
